A study of Mus musculus with 24 samples.

Results

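The transcripts described are 10 genes of immune checkpoint and costimulatory signalling, matched by symbol to the Ensembl genes of the full count table. All 10 were found among its 41388 genes. The 6 receptors are Pdcd1 (PD-1), Ctla4, Lag3, Havcr2 (TIM-3), Tigit and Icos, and the 4 ligands are Cd274 (PD-L1), Pdcd1lg2 (PD-L2), Cd80 and Cd86. RNA was sequenced from pieces of heart taken from wild-type male BALB/cAnNCrl mice (a BALB/c substrain) that were 8 to 10 weeks old when first immunized. Each of D10, D15 and D21 after the first immunization had 4 hearts with experimental autoimmune myocarditis (EAM) and 4 control hearts. EAM mice received a cardiac myosin heavy chain peptide in supplemented complete Freund's adjuvant (SCFA) on days 0 and 7 and pertussis toxin (PTX) on day 0. Control mice received SCFA with PBS and the same toxin, so the control hearts also carry the effects of adjuvant and toxin. The samples were picked to show inflammation where they could, which not every EAM mouse develops, and at D10 Ptprc, the leucocyte marker CD45, was at most 56.7 CPM in 3 of the 4 EAM hearts and 23.9 to 38.6 CPM in control hearts.

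T cells need a second signal beside the antigen receptor, and CD80 and CD86 on antigen-presenting cells give it through CD28. CTLA-4, which appears on activated and regulatory T cells, binds the same ligands and restrains the response, whereas ICOS is a costimulatory receptor of activated T cells. PD-1 is an inhibitory receptor of activated T cells, and its ligands differ in where they are found: PD-L1 is made by many cell types, endothelium and muscle included, and is known as an interferon-induced protein, whereas PD-L2 is largely restricted to dendritic cells and macrophages. LAG-3, TIM-3 and TIGIT are further inhibitory receptors of T and natural killer (NK) cells, and TIM-3 is also made by macrophages and dendritic cells. Blocking CTLA-4, PD-1 or LAG-3 is used in cancer therapy and can cause myocarditis.

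The 24 libraries hold between 15814863 and 24980864 counted reads, and 3 reads make 0.105 to 0.2004 CPM (reads scaled to library size with TMM factors), which is the limit that a count of 0 allows in a library, for counting error only. D10 EAM replicate 1 stood apart from the other 3 hearts of its group, with Ptprc at 193.6 CPM against 27.7, 56.7 and 41.6. At D21 Ptprc was 149 CPM, 96.2 CPM, 48.9 CPM and 228.5 CPM in EAM replicates 1 to 4, so replicate 3 was the lowest and replicate 4 the highest. The 4 D21 EAM libraries carry another library code than the other 20, and a code effect and the D21 EAM group cannot be told apart. In bulk tissue, more cells of a type and more RNA per cell cannot be told apart.

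The members lie on 5 autosomes of GRCm38, in the GENCODE M21 annotation. Cd274 (chr19:29367455-29388095, plus strand) and Pdcd1lg2 (chr19:29410919-29471161, plus strand) are neighbours 22.82 kb apart, and Ctla4 (chr1:60887000-60915832, plus) and Icos (chr1:60977927-61000320, plus) lie 62.09 kb apart. Cd86 (chr16:36603869-36666081, minus), Cd80 (chr16:38455561-38496335, plus) and Tigit (chr16:43648867-43664146, minus) share a chromosome. Pdcd1 is at chr1:94038305-94052553 (minus), Lag3 at chr6:124904361-124911705 (minus) and Havcr2 at chr11:46454935-46481255 (plus). Annotated antisense genes overlap Cd274 and Pdcd1lg2, and because no source used here gives the strand setting of the counting, reads of each pair cannot be told apart. Ctla4 and Icos each span another small gene model, to which some of their reads could have been given.

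RefSeq start sites on GRCm38.p6 gave promoter windows, from 250 bases before to 50 bases after the start, for 7 members: Pdcd1, Ctla4, Havcr2, Tigit, Cd274, Pdcd1lg2 and Cd80. Lag3, Cd86 and Icos had no entry. The windows of the PD-1 ligands are shown because, per kilobase of exon, Cd274 had the highest and Pdcd1lg2 the lowest level of the 10 members in control hearts of each day, and that of Ctla4 because it shares a motif match with Cd274. Capitals mark matches to GAAANNGAA on either strand, a core of sites that interferon regulatory factors bind.
Cd274, chr19:29367188-29367487, plus strand: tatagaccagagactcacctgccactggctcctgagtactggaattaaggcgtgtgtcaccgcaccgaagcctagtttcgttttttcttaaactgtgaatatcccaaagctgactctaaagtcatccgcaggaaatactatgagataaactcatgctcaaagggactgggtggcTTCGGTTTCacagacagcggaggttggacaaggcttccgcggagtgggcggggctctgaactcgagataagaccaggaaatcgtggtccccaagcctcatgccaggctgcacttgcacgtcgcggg
Pdcd1lg2, chr19:29410669-29410968, plus strand: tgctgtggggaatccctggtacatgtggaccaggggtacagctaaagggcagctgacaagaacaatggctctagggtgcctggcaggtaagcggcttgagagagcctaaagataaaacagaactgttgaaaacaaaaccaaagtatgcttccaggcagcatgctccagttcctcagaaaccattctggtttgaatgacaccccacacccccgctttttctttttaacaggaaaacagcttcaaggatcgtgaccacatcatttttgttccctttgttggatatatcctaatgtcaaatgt
Ctla4, chr1:60908775-60909074, plus strand: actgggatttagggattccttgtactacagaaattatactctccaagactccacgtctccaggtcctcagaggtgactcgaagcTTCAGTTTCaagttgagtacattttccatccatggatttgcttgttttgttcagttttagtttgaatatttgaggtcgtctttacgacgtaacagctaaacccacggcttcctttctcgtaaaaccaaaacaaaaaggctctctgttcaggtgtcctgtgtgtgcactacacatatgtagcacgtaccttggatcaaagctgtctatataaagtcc
The match in Cd274 begins 76 bases before the start site and that in Ctla4 166 bases before it. The other 5 windows hold no match to these letters, and 8.57% of the 27025 mouse promoter windows hold one. None of the 7 windows holds TTCNNNGAA, the core of a STAT site, which 8.47% of all windows hold, or GGGANTTCC, a core of an NF-kB site, which 1.69% hold. The Cd274 window contains 15 CG dinucleotides and the Pdcd1lg2 window 3, against a median of 7 over all windows.

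At D15 all 6 receptors and all 4 ligands were induced in EAM hearts, by the limits of an adjusted p under 0.01 and at least 2-fold. Of all 15693 genes tested at D15, 18.1% were induced. At D21 the 5 receptors that were tested were induced, with 2 of the 4 ligands, Pdcd1lg2 and Cd80, where 4.30% of all genes were. At D10 none of the 5 members tested passed, and 0% of all genes did. The median log2 fold change of the receptors was 4.50 at D15 and 4.02 at D21, and that of the ligands was 3.76 and 2.56, while the median over all genes tested was 0.016 and -0.0062. These counts and medians are descriptions, because 6 of the 10 members at D15 (Pdcd1, Ctla4, Lag3, Tigit, Icos and Pdcd1lg2) and 4 of the 9 at D21 (Pdcd1, Ctla4, Icos and Pdcd1lg2) reached the read filter only with their EAM hearts. Tigit is in the D15 median and not in that of D21, and with no filter on low counts the receptor median at D21 was 4.06 over all 6. The call of the 2 other ligands depended on the test, the control hearts and the filter. DESeq2 called all 4 ligands (Cd86 adjusted p = 9.64e-06, Cd274 adjusted p = 0.00637) beside 8.93% of all genes, and edgeR's likelihood ratio test called Cd86 too, beside 8.88%. All 12 control hearts in place of the 4 of D21 also gave both (Cd86 edgeR adjusted p = 2.3e-05, Cd274 edgeR adjusted p = 8.42e-05), beside 10.2% of all genes. With no filter on low counts Cd86 was called (edgeR adjusted p = 0.00954), beside 3.29%. With limma-voom 2 members were called, Pdcd1 and Lag3, beside 0.524% of all genes. Leaving out 1 heart changed the calls at D21 over all genes. Without control replicate 1, 2, 3 or 4 there were 0 members called, beside 0.00642%, 0%, 0.00645% and 0.0706% of all genes, while the receptor median stayed between 3.76 and 4.15. Without EAM replicate 1, 2 or 4 there were 1, 2 and 5 members called, beside 0.117%, 0.330% and 2.52% of all genes, and without EAM replicate 3 there were 10, beside 1709 of 15601 genes. At D15 all 10 were called without any 1 heart, beside 17.6% to 19.2% of all genes. Tests are edgeR's quasi-likelihood test on the 8 hearts of a day, with Benjamini-Hochberg adjustment over all genes tested.

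**Figure D1:**
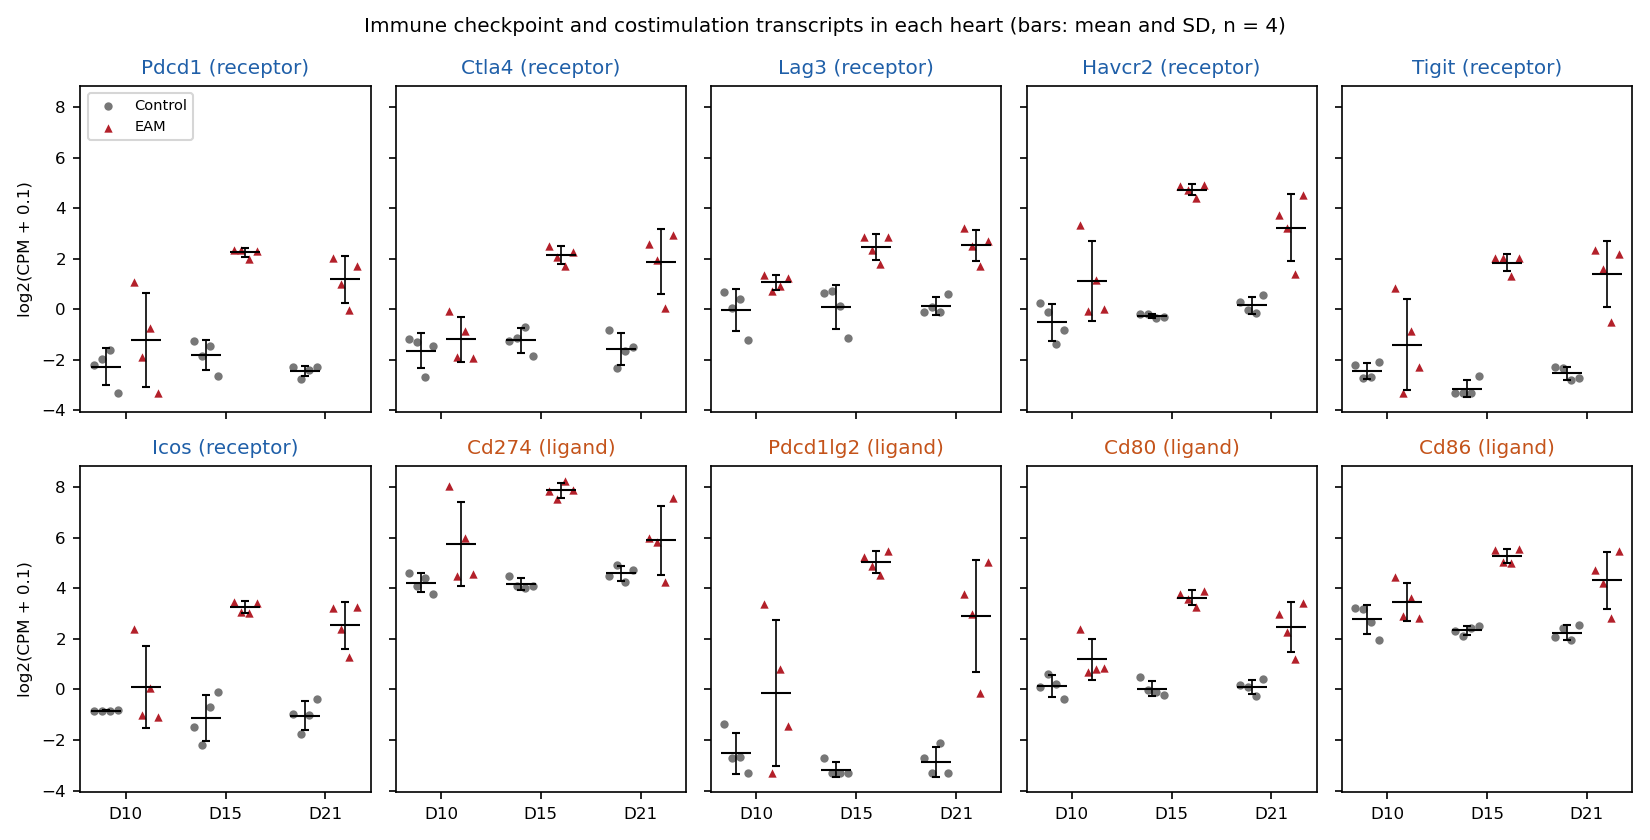
Level of each member in each of the 24 hearts, as log2(CPM + 0.1), by day, with control hearts as grey circles and EAM hearts as red triangles, and the mean and SD of 4 hearts as bars. At D15 the EAM hearts lie above all control hearts for all 10 members, and at D21 for all but Cd274.

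**Figure D2:**
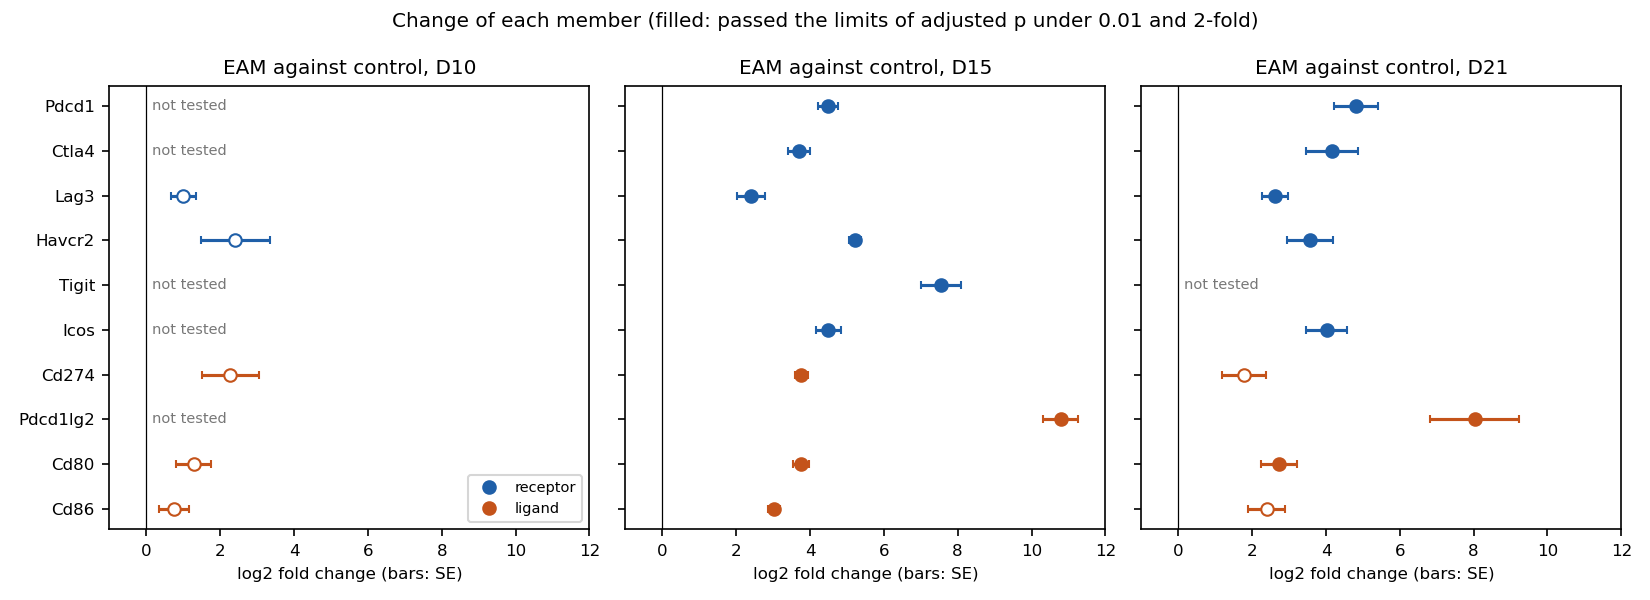
Log2 fold change of EAM over control hearts at D10, D15 and D21 with its standard error, receptors in blue and ligands in orange. Filled points passed the limits, and members with too few reads for the test are named as not tested.

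All 4 EAM hearts exceeded all 4 control hearts for 2 of 10 members at D10 (Lag3 and Cd80), 10 of 10 at D15 and 9 of 10 at D21. Over all genes tested this held for 4.41% at D10, 34.6% at D15 and 17.8% at D21. These shares are over genes past the read filter, which 5 of the 10 members passed at D10 and 9 at D21. At D15 all 10 passed it, but 6 only with their EAM hearts, as did 4 at D21.

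Per kilobase of exon, the ligand Cd274 was the most abundant member in every group. Its level in the 4 D15 EAM hearts was 230 CPM, 187 CPM, 303 CPM and 238 CPM, against 15.9 to 22.6 CPM in the D15 control hearts. The groups were far apart, and the log2 fold change was 3.76 ± 0.17 (SE, edgeR adjusted p = 1.39e-07). At D21 Cd274 was at 64.5 CPM, 56.3 CPM, 18.8 CPM and 190.5 CPM in EAM hearts and at 19.0 to 30.4 CPM in control hearts. EAM replicate 3 was below every control heart there, the other 3 EAM hearts were above them all, and the log2 fold change of 1.79 ± 0.60 did not pass (edgeR adjusted p = 0.0482). Without that heart the log2 fold change was 2.09 ± 0.41 (edgeR adjusted p = 0.00451), and without EAM replicate 4, the highest, it was 0.95 ± 0.38 (edgeR adjusted p = 0.095).

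Pdcd1lg2 was close to undetected in control hearts, with 7 reads over the 4 hearts at D10, 1 read at D15 and 4 reads at D21. In the D15 EAM hearts it reached 37.8 CPM, 29.5 CPM, 23.0 CPM and 45.1 CPM, from 3465 reads. This was the widest separation of the 10 members by summed reads. The ratio of library-scaled reads was 2456, with a 95% counting interval of 440.5 to 97028 that rests on the single control read and covers counting error only. The fitted log2 fold change of 10.79 ± 0.48 (edgeR adjusted p = 1.62e-08) depends on how such low counts are smoothed. At D21 the EAM hearts were at 13.8 CPM, 7.79 CPM, 0.802 CPM and 32.8 CPM, all above the control hearts, and Pdcd1lg2 was still induced (ratio 297.2, interval 115.7 to 1093, edgeR adjusted p = 0.00406).

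Their receptor Pdcd1 was at 4.95 CPM, 5.01 CPM, 3.84 CPM and 4.86 CPM in D15 EAM hearts and at 0.0589 to 0.312 CPM in controls. It was at 3.99 CPM, 1.91 CPM, 0.869 CPM and 3.15 CPM at D21, against 0.0480 to 0.102 CPM. Both days separated the groups, with log2 fold changes of 4.50 ± 0.27 (edgeR adjusted p = 8.43e-07) and 4.82 ± 0.60 (edgeR adjusted p = 0.00317). Per kilobase of exon, Cd274 exceeded Pdcd1 by a median of 25.4 times in the D15 EAM hearts (19.9 to 42.1) and 13.6 times in the D21 EAM hearts (8.60 to 32.3). Pdcd1lg2 exceeded Pdcd1 by a median of 6.70 times at D15 (5.80 to 9.13) and 3.71 times at D21 (0.908 to 10.3). The ranges of the 2 days overlap for both ligands. Between the ligands, the level of Cd274 per kilobase was 13.6 to 48.2 times that of Pdcd1lg2 in the 3 D10 EAM hearts with enough reads and 2.86 to 7.15 times at D15, and these ranges do not overlap.

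Of the CD28 and CTLA-4 ligands, Cd86 was present in control hearts at 4.25 to 5.59 CPM at D15 and Cd80 at 0.765 to 1.30 CPM. In the D15 EAM hearts Cd86 was at 45.5 CPM, 33.2 CPM, 32.4 CPM and 47.2 CPM, a log2 fold change of 3.02 ± 0.16 (edgeR adjusted p = 3.69e-07). Cd80 was at 13.7 CPM, 11.9 CPM, 9.41 CPM and 15.0 CPM, a log2 fold change of 3.75 ± 0.22 (edgeR adjusted p = 5.73e-07). Both were clear of the control hearts. At D21 Cd86 was at 26.6 CPM, 18.7 CPM, 7.02 CPM and 44.4 CPM in EAM hearts, above all control hearts (3.76 to 5.73 CPM), but its log2 fold change of 2.39 ± 0.50 missed the limit (edgeR adjusted p = 0.0113). Cd80 was at 7.93 CPM, 4.68 CPM, 2.20 CPM and 10.7 CPM and passed it, with a log2 fold change of 2.73 ± 0.48 (edgeR adjusted p = 0.00724). Cd86 exceeded Cd80 per kilobase in every heart, by 2.82 to 3.49 times in D15 EAM hearts and 3.80 to 7.39 times in D15 control hearts. The EAM and control ranges overlapped at D10 (4.14 to 7.42 and 5.87 to 9.58 times) and at D21 (3.22 to 4.20 and 4.15 to 5.56 times).

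Ctla4 was at 5.62 CPM, 4.10 CPM, 3.16 CPM and 4.71 CPM in D15 EAM hearts and at 5.91 CPM, 3.76 CPM, 0.935 CPM and 7.50 CPM in D21 EAM hearts. Control hearts reached at most 0.518 CPM on these days, so neither day overlapped, and the log2 fold changes were 3.69 ± 0.30 (edgeR adjusted p = 5.24e-06) and 4.17 ± 0.70 (edgeR adjusted p = 0.00678). Per kilobase, Cd80 was a median of 1.85 times Ctla4 at D15 (1.54 to 2.001) and 0.871 times at D21 (0.784 to 1.48), ranges that do not overlap. Cd86 was 5.77 times Ctla4 at D15 (5.15 to 6.53) and 3.47 times at D21 (2.86 to 4.77), again without overlap. Day and library code cannot be told apart in these ratios. Icos was at 11.02 CPM, 8.34 CPM, 8.10 CPM and 10.8 CPM at D15 and at 9.31 CPM, 5.17 CPM, 2.34 CPM and 9.43 CPM at D21, with controls of at most 0.824 CPM. It was induced on both days, by 4.50 ± 0.34 (edgeR adjusted p = 3.27e-06) and 4.02 ± 0.55 (edgeR adjusted p = 0.00464) on the log2 scale.

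Per kilobase, Havcr2 was the most abundant receptor in D15 EAM hearts. It was at 29.1 CPM, 26.5 CPM, 21.1 CPM and 30.3 CPM, against 0.673 to 0.781 CPM in controls. Its log2 fold change was 5.22 ± 0.16 (edgeR adjusted p = 1.69e-08), the largest of the receptors with more than 1 control read. At D21 it was at 13.3 CPM, 9.15 CPM, 2.54 CPM and 22.9 CPM in EAM hearts, above the controls at 0.788 to 1.38 CPM, with a log2 fold change of 3.57 ± 0.63 (edgeR adjusted p = 0.00718). Lag3 had the smallest change of the 10 members at D15, 2.41 ± 0.38 (edgeR adjusted p = 0.000311). Its level was 7.20 CPM, 4.94 CPM, 3.38 CPM and 7.14 CPM in D15 EAM hearts and 0.353 to 1.53 CPM in controls, with no overlap. At D21 it was at 9.17 CPM, 5.502 CPM, 3.14 CPM and 6.35 CPM, against 0.813 to 1.43 CPM in controls, a log2 fold change of 2.62 ± 0.36 (edgeR adjusted p = 0.00471). Tigit had 1 read in the 4 D15 control hearts and 367 reads in the EAM hearts, at 3.95 CPM, 3.96 CPM, 2.40 CPM and 3.93 CPM. The ratio was 260.1 with a counting interval of 46.4 to 10302, and Tigit was induced (edgeR adjusted p = 3.84e-07). At D21 Tigit was at 4.93 CPM, 2.89 CPM, 0.601 CPM and 4.47 CPM in EAM hearts and at most 0.102 CPM in controls. With 9 reads in EAM replicate 3 it had too few reads for the test there, and with no filter on low counts its log2 fold change was 5.38 ± 0.70 (edgeR adjusted p = 0.00259). 

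Ranked per kilobase in D15 EAM hearts, Cd274 (66.2 ± 13.3 CPM per kb, SD, n = 4) was followed by Pdcd1lg2 (17.3 ± 4.92), Cd86 (10.8 ± 2.14), Havcr2 (9.83 ± 1.51), Tigit (3.88 ± 0.840), Cd80 (3.38 ± 0.652), Icos (2.79 ± 0.452), Lag3 (2.68 ± 0.878), Pdcd1 (2.42 ± 0.287) and Ctla4 (1.89 ± 0.443). Of the neighbours in this order, Cd274 and Pdcd1lg2 did not overlap, nor did Havcr2 and Tigit. All other neighbours overlapped. In D15 control hearts the order began with Cd274 (5.001 ± 0.837 CPM per kb), Cd86 (1.36 ± 0.156) and Lag3 (0.513 ± 0.258), each clear of the next up to Lag3. Pdcd1lg2, second in D15 EAM hearts, was last in the D15 control hearts (0.00664 ± 0.0133 CPM per kb).

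At D10 no member was called with or without EAM replicate 1, but the size of several changes depended on that heart. Cd274 was at 262 CPM in EAM replicate 1 and at 22.4 CPM, 64.5 CPM and 23.5 CPM in the others, with control hearts at 13.7 to 24.5 CPM. In replicate 1 it lay within the range of the D15 EAM hearts, while Havcr2 (9.94 CPM), Icos (5.13 CPM), Cd80 (5.13 CPM), Pdcd1lg2 (10.5 CPM) and the other 5 members lay below theirs. That heart had the highest level of all 10 members in its group. With it, Cd274 had a log2 fold change of 2.28 ± 0.77 (edgeR adjusted p = 0.328) and without it 0.93 ± 0.37 (edgeR adjusted p = 0.434). The other members tested were Havcr2 at 2.40 ± 0.93, Cd80 at 1.28 ± 0.48, Lag3 at 0.99 ± 0.34 and Cd86 at 0.75 ± 0.41, and without replicate 1 they were at 0.92, 0.62, 0.87 and 0.29. The other 5 members had too few reads for the test. Pdcd1 was at 0 to 1.99 CPM in D10 EAM and 0 to 0.225 CPM in D10 control hearts, Ctla4 at 0.158 to 0.840 CPM and 0.0562 to 0.342 CPM, and Tigit at 0 to 1.68 CPM and 0.0512 to 0.132 CPM. Icos was at 0.369 to 5.13 CPM and 0.449 to 0.463 CPM, and Pdcd1lg2 at 0 to 10.5 CPM and 0 to 0.285 CPM. In each of these, 2 of 4 EAM hearts exceeded all control hearts, and with no filter on low counts 0 of 10 members were called. Of the 5 members tested, 4 had an unadjusted p under 0.05 in edgeR, as had 2279 of all 15029 genes. None was called by edgeR's likelihood ratio test, DESeq2 or limma-voom, which called 0.299%, 0.319% and 0% of all genes higher. With all 12 control hearts in place of the 4 of D10, Cd274, Havcr2, Cd80 and Cd86 were called, as were 4.09% of all genes. The 8 added control hearts are from D15 and D21, where Cd86 was at 3.76 to 5.73 CPM against 3.83 to 9.19 CPM in D10 control hearts.

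The effect of EAM was larger at D15 than at D10 for Cd86 and Cd80 by a test of the difference in a fit of all 24 hearts. The difference was 2.22 ± 0.58 on the log2 scale for Cd86 (edgeR adjusted p = 0.00539) and 2.43 ± 0.65 for Cd80 (edgeR adjusted p = 0.00626), and 5.30% of all genes were called in this direction. The other 8 members had differences of 1.37 to 5.78 that did not pass. All 4 D15 EAM hearts lay above all 4 D10 EAM hearts for 9 of 10 members, all but Cd274, and for 21.5% of all genes. Without D10 EAM replicate 1, 6 members were called: Cd80, Cd86, Cd274, Havcr2, Icos and Tigit, beside 12.4% of all genes in that fit. Without any 1 of the other 3 D10 EAM hearts, 0 were. The count was also 0 without D10 control replicates 1 or 2, D15 control replicate 2, or D15 EAM replicates 1 or 4, and it was 1 without D10 control replicate 3, D15 control replicates 1, 3 or 4, or D15 EAM replicate 2. In these fits with 0 or 1 member called, the share of all genes called was also lower, at 2.83% to 3.96%.

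From D15 to D21 no member's effect differed past the limits, where 0.968% of all genes were called lower and 2.84% higher. Of the 10 members 1, Cd274, had an unadjusted p under 0.05, as had 6689 of all 16318 genes, with a difference of -1.98 ± 0.87 (edgeR adjusted p = 0.0918). The likelihood ratio test of edgeR, DESeq2 and limma-voom also called 0 members. They called 3.95%, 3.64% and 2.21% of all genes higher and 1.54%, 1.54% and 0.919% lower. The ligands had differences of -0.63 ± 0.58 for Cd86, -1.003 ± 0.63 for Cd80, -1.98 ± 0.87 for Cd274 and -2.73 ± 4.38 for Pdcd1lg2. Of the receptors, 3 were above 0 (Ctla4 at 0.49 ± 0.89, Pdcd1 at 0.35 ± 1.15 and Lag3 at 0.22 ± 0.55) and Icos, Havcr2 and Tigit were at -0.47 ± 1.07, -1.64 ± 0.99 and -2.09 ± 2.11. The medians were -0.12 for receptors and -1.49 for ligands, beside -0.00066 over all genes. The receptor median turned to 0.14 without D21 control replicate 4 and to 0.12 without D21 EAM replicate 3, and was -0.37 without D21 EAM replicate 1. The sign for Pdcd1 turned to -0.08 with limma-voom, and that for Lag3 to -0.05 without D21 EAM replicate 1. A difference between the classes was not tested, since the genes of a class are not replicates.

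**Figure D3:**
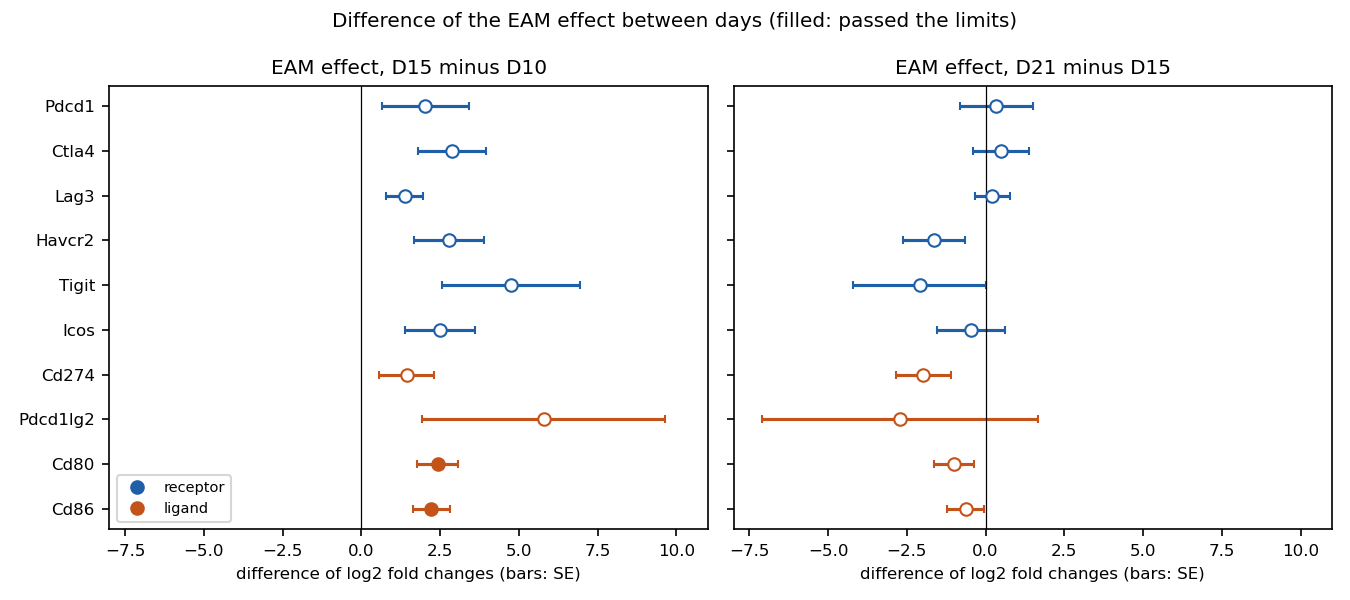
Difference of the EAM effect between days for each member with its standard error, receptors in blue and ligands in orange, filled where the limits were passed. Cd80 and Cd86 passed from D10 to D15, none passed from D15 to D21, and all 4 ligands lie below 0 in the right panel.

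Members did not all rank the hearts of a group alike. At D21, EAM replicate 3 was the lowest for all 10 members. EAM replicate 4 was the highest for all 4 ligands and for Ctla4, Havcr2 and Icos, whereas EAM replicate 1 was the highest for Pdcd1, Lag3 and Tigit. At D15, EAM replicate 3 was the lowest for all 6 receptors and for Pdcd1lg2, Cd80 and Cd86, yet the highest for Cd274, at 303 CPM. The summed level of Cd3d, Cd3e and Cd3g, which encode chains of the T cell receptor complex, was 16.1 CPM in that heart and 21.7 to 23.8 CPM in the other D15 EAM hearts. Ptprc was also the lowest there, at 243.5 CPM against 256.2 to 305.3 CPM. Summed cardiomyocyte markers were the highest there, at 19657 CPM against 7596 to 12134 CPM.

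Among the 5 members with enough reads in control hearts (Lag3, Havcr2, Cd274, Cd80 and Cd86), 0 were called between days in the 12 control hearts by edgeR's quasi-likelihood test, its likelihood ratio test, DESeq2 or limma-voom. The share of all genes called in either direction was 0.0588% from D10 to D15, 0% from D15 to D21 and 0.993% from D10 to D21. At an unadjusted p under 0.05 there was 1 of 5 members in each comparison, beside 2599, 1532 and 4360 of all 15311 genes from D10 to D15, D15 to D21 and D10 to D21: Cd86 at -0.51 ± 0.23 from D10 to D15 and at -0.60 ± 0.23 from D10 to D21, and Cd274 at 0.43 ± 0.18 from D15 to D21.

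Most T cell, monocyte and macrophage markers were induced with the members at D15 and D21, and no endothelial or cardiomyocyte marker was. Over all genes tested, 18.1% were induced and 12.9% repressed at D15, and 4.30% and 1.3% at D21. Of 10 T cell genes, 10 were induced at D15 and 9 at D21, and their summed level was 14.3 to 21.0 CPM in D15 control hearts and 105 to 139 CPM in D15 EAM hearts, then 15.5 to 21.2 CPM and 37.1 to 142.9 CPM at D21. Of 10 monocyte and macrophage genes, 9 and 6 were induced, with sums of 542 to 596 CPM in control and 3521 to 4937 CPM in EAM hearts at D15, and of 486 to 759 CPM and 1263 to 4231 CPM at D21. All genes of both lists had reads in each of the 6 groups. At D10 only 6 of the 10 T cell genes were tested, and Cd3d, Cd3e and Cd3g reached the read filter at D15 only with their EAM hearts. The counts of induced markers are therefore descriptions. Induced genes numbered 6 of 6 and 4 of 5 tested for NK cells, 6 of 6 and 1 of 6 for neutrophils, 5 of 8 on both days for dendritic cells, and 2 of 4 and 1 of 4 for regulatory T cells, with 0 of 3 and 0 of 1 tested for B cells. Of 7 cardiomyocyte genes, 3 were repressed at D15 and 0 at D21, and of 6 endothelial genes 1 and 0, while 1 of 6 fibroblast genes was induced on each day. No gene of any of these lists was called at D10. To set the members beside these markers, each receptor was divided by the CD3 sum and each ligand by the sum of Cd68, Csf1r, Adgre1 and Fcgr1, macrophage genes, after adding 0.1 CPM.

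None of 33 comparisons of these ratios passed an adjusted p of 0.05 in two-sided exact permutation tests of 4 against 4 hearts. Of the 33, 11 reached 0.0286, the smallest p such a test can give, with an adjusted p of 0.0857. With that smallest p and adjustment over 33 comparisons, no single comparison could pass, however far apart its groups were. The absence of calls is therefore no sign that the ratios were alike. Per CD3 sum, Havcr2 was 1.14 higher on the log2 scale in D15 than in D10 EAM hearts (higher in 4 of 4 hearts) and 1.16 lower in D21 than in D15 EAM hearts, both among those 11 (exact p = 0.0286, adjusted p = 0.0857). Havcr2 is also a macrophage transcript, and over the 12 EAM hearts its r was 0.978 with the macrophage sum and 0.954 with the CD3 sum, where Pdcd1 had 0.970 and 0.964. Pdcd1 per CD3 sum had a mean log2 ratio of -2.14 ± 0.090 at D15 and -2.86 ± 0.13 at D21 (SD, n = 4 EAM hearts), and Icos one of -1.12 ± 0.17 and -1.49 ± 0.028, also without overlap. For Ctla4 the ratio was -2.24 ± 0.14 and -2.15 ± 0.41, and for Tigit -2.54 ± 0.12 and -2.63 ± 0.45, differences within the spread between hearts. Lag3 per CD3 sum was at -1.92 ± 0.29 in EAM and -0.27 ± 0.64 in control hearts at D15, and at -1.51 ± 0.41 and -0.44 ± 0.43 at D21, without overlap on either day. The CD3 sum of control hearts was only 0.942 to 1.42 CPM at D15 and 1.14 to 1.58 CPM at D21. Lag3 itself had 6 reads in D15 control replicate 4, so the control ratios rest on few reads.

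Per macrophage sum, Cd80 had a log2 ratio of -6.24 ± 0.12 in D15 EAM hearts, against -7.07 ± 0.29 in D10 EAM hearts and -7.15 ± 0.40 in D15 control hearts, without overlap. At D21 it was -6.49 ± 0.26 in EAM and -7.31 ± 0.093 in control hearts. Cd86 overlapped between groups, at -4.58 ± 0.22 in D15 EAM and -4.85 ± 0.15 in D15 control hearts (exact permutation p = 0.0857, adjusted p = 0.202). Cd274 was at -1.99 ± 0.52 in D15 EAM hearts and -3.02 ± 0.32 in D15 control hearts, and at -3.06 ± 0.78 and -2.81 ± 0.26 at D21, where EAM hearts lay on both sides of the control hearts. Whether these ratios follow the level per cell was not tested.

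**Figure D4:**
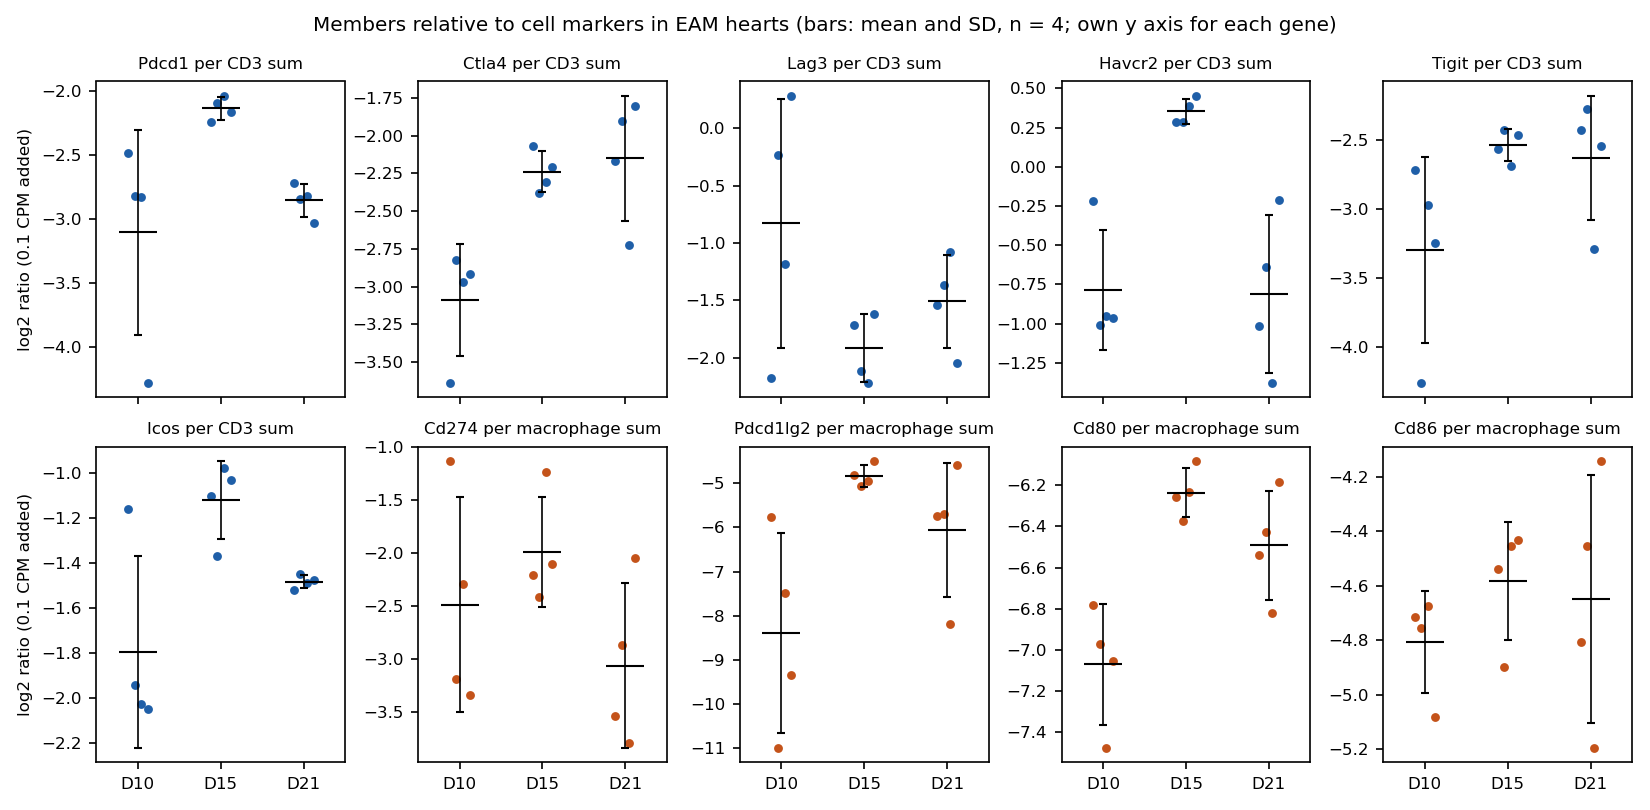
Log2 ratio of each receptor to the CD3 sum and of each ligand to the macrophage sum in the 12 EAM hearts, with the mean and SD of 4 hearts, each gene on its own scale. Pdcd1, Havcr2 and Icos lie lower at D21 than at D15 in all hearts. None of the comparisons passed after adjustment, which no single one could do with 4 against 4 hearts.

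Over the 12 EAM hearts, members were correlated on the log2(CPM + 1) scale, with hearts of 3 days pooled, so that the values share the day and the leucocyte content of each heart. Of the 4 ligands, Cd274 had the lowest r with each of the 6 receptors, from 0.451 with Lag3 to 0.876 with Havcr2, whereas Pdcd1lg2, Cd80 and Cd86 had r of 0.764 to 0.994 with the receptors. The highest pair was Havcr2 and Pdcd1lg2 (r = 0.994). Cd274 had r = 0.935 with Ptprc and 0.748 with the CD3 sum, and Tigit had r = 0.896 and 0.986. Among 14274 other genes, the 3 most like Cd274 were Gbp7, Socs1 and Ifi47 (r = 0.995 to 0.996), known as interferon-induced genes. The 3 most like Tigit were Cd3d, Cd5 and Zap70 (r = 0.989 to 0.995), T cell genes, and the most like Ctla4 was Ccr7 (r = 0.989), a homing receptor of lymphocytes and dendritic cells. Ccl5, a chemokine made by T and NK cells, was most like Icos (r = 0.994), and for the others the most like genes were Rps6ka1 for Pdcd1, H2-M2 for Lag3, Aldoc for Havcr2, Ass1 for Pdcd1lg2, Taok3 for Cd80 and Plbd1 for Cd86 (r = 0.970 to 0.996).

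**Figure D5:**
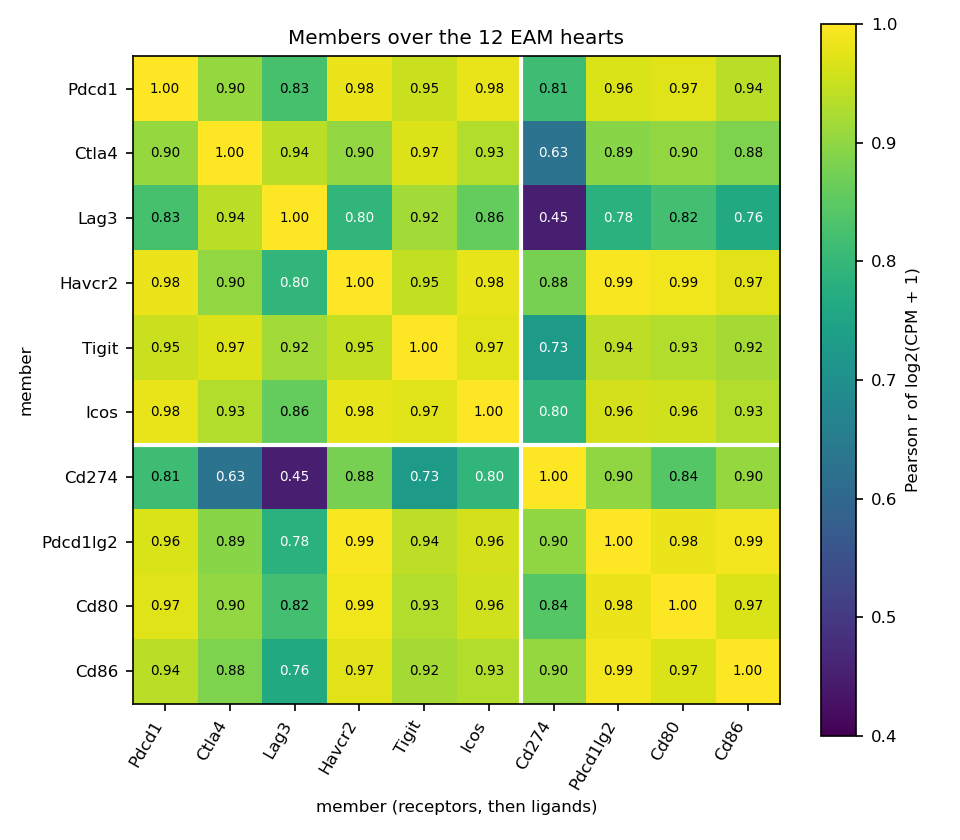
Pearson r of log2(CPM + 1) between members over the 12 EAM hearts, receptors first and then ligands, divided by white lines. The lowest value is that of Cd274 and Lag3, 0.45.

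The other genes of the pathway were taken from lists of receptors and ligands. Of 12 other receptors, 11 were induced at D15 and 6 of 10 tested at D21, where 18.1% and 4.30% of all genes tested were. At D10 only 7 of the 12 were tested, and receptors such as Tnfrsf9 reached the read filter at D15 and D21 only with their EAM hearts. These counts are therefore descriptions. Tnfrsf9 (4-1BB, a costimulatory receptor of activated T cells) changed most, from 0.0589 to 0.208 CPM in D15 control hearts to 16.4 to 48.3 CPM in EAM hearts, a log2 fold change of 7.9997 ± 0.48 (edgeR adjusted p = 5.23e-07). Btla, an inhibitory receptor, was induced at D15 (3.84 ± 0.38, edgeR adjusted p = 1.87e-05) and missed the limit at D21 (3.10 ± 0.70, edgeR adjusted p = 0.0141). The exception at D15 was Cd28, the receptor that CTLA-4 opposes, at 11.04 to 12.5 CPM in control and 7.33 to 10.9 CPM in EAM hearts (-0.38 ± 0.13, edgeR adjusted p = 0.0206). At D21 its log2 fold change was 0.02 ± 0.13. In D15 control hearts Cd28 stood far above the CD3 sum, which was 0.942 to 1.42 CPM. Which cells the Cd28 reads came from was not tested.

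Of 15 other ligands, 6 of 11 tested were induced at D15 and 2 of 10 at D21, Cd48 and Tnfsf9, beside 18.1% and 4.30% of all genes. Tnfsf18 reached the read filter at D15 only with its EAM hearts. Cd40, listed with the ligands as a protein of antigen-presenting cells through which T cells license them, was induced at D15 (2.97 ± 0.24, edgeR adjusted p = 5.64e-06) and not past the limit at D21 (2.28 ± 0.53, edgeR adjusted p = 0.0153). Among the 11 tested, the largest change was that of Tnfsf18, the ligand of GITR (3.27 ± 0.43, edgeR adjusted p = 9.91e-05), and the smallest that of Cd200 (0.13 ± 0.09, edgeR adjusted p = 0.199). Cd276 (B7-H3) was at 11.96 to 14.5 CPM in D15 control and 14.3 to 34.2 CPM in EAM hearts, overlapping slightly, and was induced by 1.02 ± 0.23 (edgeR adjusted p = 0.00286). Icosl, the ligand of ICOS, was at 13.6 to 16.8 CPM and 16.8 to 32.3 CPM at D15, a log2 fold change of 0.70 ± 0.17 (edgeR adjusted p = 0.005) that is under 2-fold. Pvr and Nectin2, ligands of TIGIT, and Lgals9, a ligand of TIM-3, had log2 fold changes of 0.27, 0.66 and 0.94 at D15, each under 2-fold.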

How the data were processed

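Heart RNA of 24 mice was sequenced as directional poly(A) libraries. The authors deposited raw read counts per Ensembl gene, made from 75 bp read pairs with HISAT2 2.0.4 on GRCm38, Picard removal of duplicates and featureCounts, and no source used here gives the strand setting. Removal of duplicates can lower the counts of abundant genes. Groups and replicate numbers came from the sample labels, but what a replicate number stands for is not stated in them. The p-values measure the spread between these hearts.

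The main tool was edgeR 4.0.16 under R 4.3.3, with DESeq2 1.42.0 and limma 3.58.1 as alternatives. A gene needed 10 reads in 4 samples to be tested. Libraries were scaled by TMM, and the quasi-likelihood test compared the EAM with the control hearts of each day. Induced or repressed means an adjusted p below 0.01 together with a change of 2-fold or more. Differences between days came from a fit of all 24 hearts and controls were compared in a fit of 12. A standard error is the fold change divided by the square root of its F statistic. CPM are counts scaled with TMM factors over 24 libraries, and a level per kilobase divides by the exon length in GENCODE M21. Ratios to markers added 0.1 CPM and were tested with exact permutation tests. Tables and plots were made in Python with pandas, scipy and matplotlib. The quasi-likelihood test and the permutation test were checked on simulated data.

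The members and all gene lists were chosen with earlier results of these data known. The genes named are the 10 members, Cd28, Icosl, Cd40, Btla, Tnfrsf9, Cd276, Pvr, Nectin2, Lgals9, the genes of largest and smallest change at D15 in each list of other receptors and ligands, and the genes most like each member over the EAM hearts. The 2 ligands induced at D21, Cd48 and Tnfsf9, were named after their values were seen. Alternatives were other tests, normalizations, filters, limits and control hearts, a replicate block, and leaving out each library in turn, for which the read filter asked for as many samples as the smallest group. The legacy quasi-likelihood method and 2 sets of likelihood ratio tests at D10 were added after the data were seen.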

Additional observations from a re-analysis of the deposited data

Results flagged for a closer look

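In 54 of the 60 member and group combinations at least 1 library had more than 3 reads, and the distance of the highest or lowest heart from the other 3 was examined in these. Chance alone flags about 1 in 20 such groups. In 7 groups a heart lay far from the rest, and 4 of these were D10 EAM replicate 1, high for Havcr2 (9.94 CPM against at most 2.12), Icos (5.13 CPM against at most 0.946), Pdcd1lg2 (10.5 CPM against at most 1.67) and Cd80 (5.13 CPM against at most 1.69). That heart also had 193.6 CPM of Ptprc, and the part of leucocyte content in these values was not tested. D15 EAM replicate 3 was low for Pdcd1 (3.84 CPM, next heart 4.86) and Tigit (2.40 CPM, next heart 3.93), and D15 control replicate 1 was high for Cd274 (22.6 CPM, next heart 17.1).

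Cd86 and Cd80 had a larger effect of EAM at D15 than at D10 by edgeR's test of the difference, 2.22 and 2.43 on the log2 scale. Cd86 missed the limit with limma-voom (adjusted p = 0.0122), and neither was called without D10 EAM replicate 2, 3 or 4. All 4 D15 EAM hearts lay above all 4 D10 EAM hearts for 9 of 10 members, these included, and for 21.5% of all genes. The levels were 32.4 to 47.2 CPM against 6.91 to 21.8 CPM for Cd86 and 9.41 to 15.0 CPM against 1.53 to 5.13 CPM for Cd80.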

How the results depend on the processing

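At D15 all 10 members were called under each alternative, beside 12.2% (no filter on low counts) to 33.3% (no fold limit) of all genes called higher. They were also called with each library left out, beside 17.6% to 19.2%. At D10 the count was 0 except with all 12 control hearts (4) and in likelihood ratio tests without 1 library (0 to 1, beside 0.118% to 1.47% of all genes). At D21 the 7 called became 2 with limma-voom (Pdcd1 and Lag3), 8 with the likelihood ratio test (Cd86 added), 9 with DESeq2 (Cd86 and Cd274 added), and 0 to 10 with 1 library left out: 0 without any control heart, 1 and 2 without EAM replicates 1 and 2, 10 without 3 and 5 without 4. The D15 minus D10 count of 2 became 5 with the likelihood ratio test, 5 with DESeq2, 1 with limma-voom (7.65%, 8.05% and 5.06% of all genes) and 0 to 6 with 1 library left out. The counts of 0 for D21 minus D15, for control hearts between days and for marker ratios held throughout. For marker ratios no single comparison could pass the adjusted limit, with all hearts or with 1 left out, so that count of 0 says little. Receptor median minus ligand median was 0.74 at D15 (0.60 to 0.93 with 1 library left out, highest without control replicate 3), 1.45 at D21 (1.20 to 1.65) and 1.37 for D21 minus D15 (1.12 to 1.82, highest without D21 EAM replicate 4). Signs near 0 turned in D21 minus D15, Pdcd1 to -0.077 with limma-voom and Lag3 to -0.053 without D21 EAM replicate 1, the lowest of its values with 1 library left out (highest 0.50). The causes were not tested. With a replicate block the counts were 0 at D10, 10 at D15, 7 at D21, 3 for D15 minus D10 (Havcr2 added) and 0 for D21 minus D15, beside 0.00665%, 17.7%, 4.23%, 8.18% and 0.509% of all genes called higher. Deviations of same-numbered EAM and control hearts correlated above 0.1 in 2 of 4 pairs at D10, 0 at D15 and 3 at D21 (the fourth 0.097), so the numbers were not taken as pairs. Depth limits Tigit and Pdcd1lg2, with 1 read each in D15 control hearts.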
